A study of Equus caballus with 6 samples.

Results

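The genes described here are the enzymes and regulators that remove superoxide and peroxides and keep protein thiols reduced, read in the testes of stallions given dexamethasone or saline. They are a list of 38 gene symbols, and a probe was counted as theirs when the platform annotation gave it exactly 1 of these symbols. By this rule 32 of the 38 genes had 41 probes, out of 53423 gene probes on the array. The rule uses no measured value. GPX6 and PRDX5 had no probe in the annotation, and PRDX1, PRDX2, TXNRD3 and NFE2L2 were named only on probes shared with a second gene, so that these 6 genes are not analysed here. None of the 16 genes that could be tested passed the test of treated against saline stallions, the groups overlapped for each of them, and the other 16 genes with a probe of their own gave too little signal to be compared.

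Tissue was the parenchyma of the testis, which holds the sperm-forming tubules and, between them, the hormone-producing interstitium, from 6 adult stallions. Dexamethasone, a synthetic agonist of the glucocorticoid receptor, had been given to 3 of them intravenously at 0.1 mg/kg, and the other 3 had received saline of the same volume. All 6 had spent 10 days getting used to the clinic and were fed hay and horse feed, and the testes were taken 12 h after the injection. Each animal gave 1 RNA sample and 1 CodeLink array, a human design, so that horse transcripts were read by probes made for human ones. All 38 member symbols occur among the RefSeq genes of the horse (assembly TB-T2T). The match between human probe and horse transcript could not be checked here, so a dim probe does not show that a transcript is scarce.

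Superoxide dismutases turn superoxide into hydrogen peroxide, which catalase, the glutathione peroxidases and the peroxiredoxins then reduce to water. Glutathione peroxidases draw electrons from glutathione, and most peroxiredoxins draw them from thioredoxin, and both carriers are reset with NADPH by their own reductases. The transcription factor NRF2, the product of NFE2L2, is held in check by KEAP1 and drives many genes of this network. In the testis the network serves steroid-producing Leydig cells, whose cytochromes leak oxidants, and germ cells rich in unsaturated membrane lipids. The selenoenzyme GPX4 is also a structural protein of the sperm midpiece.

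Detection separated the 41 probes into 2 kinds. On all 6 arrays 15 probes were above background, and 16 probes were above it on at least 3 arrays, the minimum for a test. These 16 probes are 39.0% of the member probes, beside 51.7% of all 23472 probes with a single symbol, and no test of that difference was made. On none of the arrays were 20 probes above background, 48.8% of the member probes against 38.7% of all probes with a single symbol. Signal strength, the mean brightness of a spot relative to its noise, was 1.03 to 22.97 for the 16 tested probes and 0.57 to 1.37 for the other 25. Between 15 and 18 member probes were above background on each array, 16, 17 and 18 in the dexamethasone stallions and 18, 15 and 16 in the controls.

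**Figure D1:**
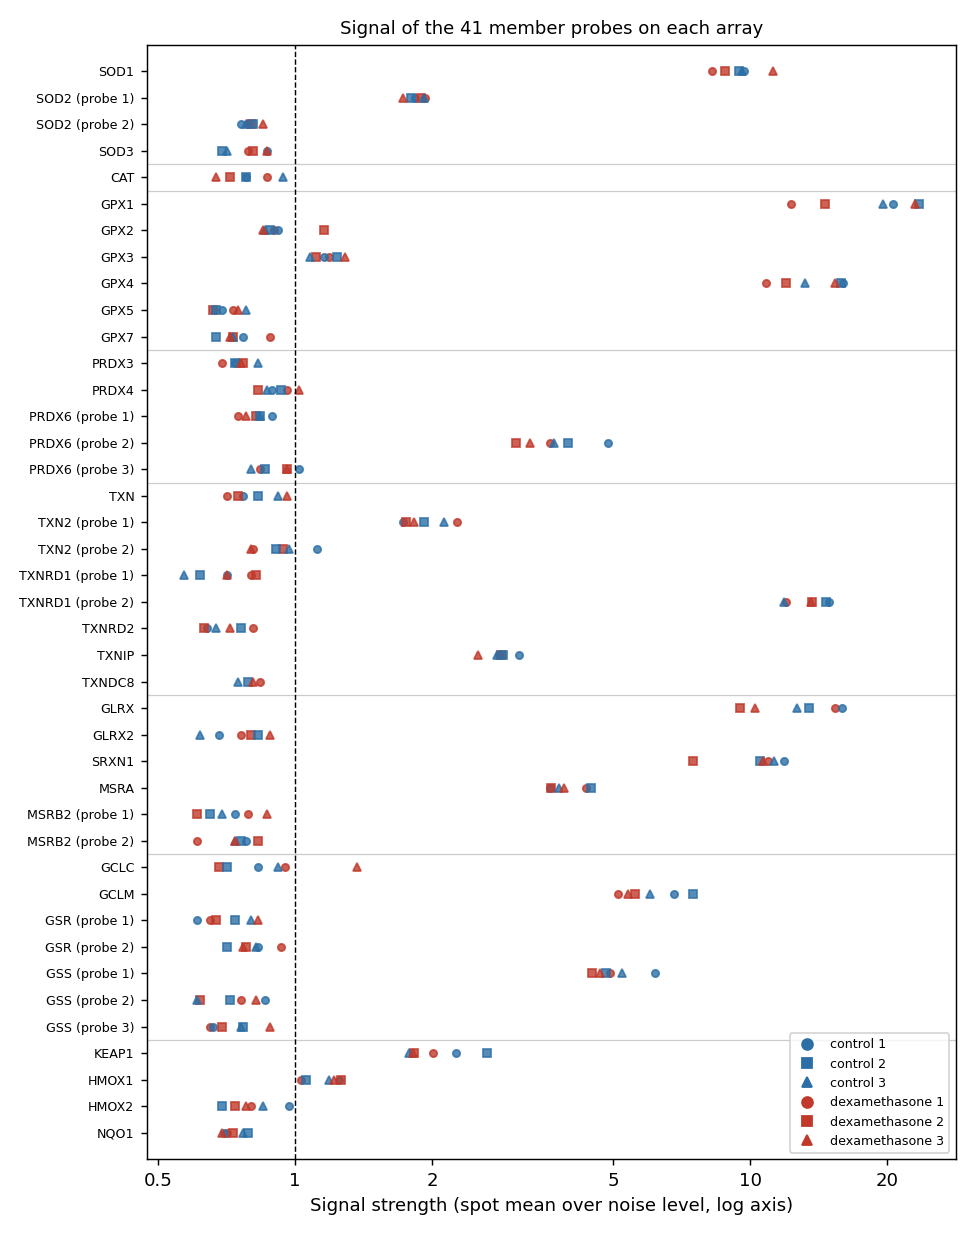
Signal strength (spot mean over noise level, log axis) of each of the 41 member probes on the 6 arrays, with dexamethasone stallions in red, controls in blue, circles, squares and triangles for replicates 1 to 3 and lines between enzyme classes. The dashed line at 1 marks background. The 16 tested probes lie to its right on all arrays, and the others lie left of it except on single arrays for GCLC, GPX2, PRDX4, TXN2 (probe 2) and PRDX6 (probe 3). Spots with a quality flag are drawn too, among them control replicate 2 of GPX1, which has no value in the test.

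Members with several probes show how far signal depended on the probe. Of the 7 such genes, 5 had 1 probe above background on all 6 arrays and at least 1 other below the minimum. For SOD2 the second probe was above background on 0 arrays, for TXNRD1 likewise, and for GSS both other probes were. The second TXN2 probe and 1 of the 2 other PRDX6 probes were above background on 1 array each, that of control replicate 1. Among genes with several probes and at least 1 detected, at least 1 other was not detected in 5 of 5 members (100%). For all such genes on the array it was 2296 of 3272 (70.2%), and no test of that difference was made. Both GSR probes, for the reductase that regenerates glutathione, and both MSRB2 probes, for a mitochondrial methionine sulfoxide reductase, were above background on 0 arrays.

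The remaining members without a usable probe include central enzymes. Above background on 0 arrays were the probes of SOD3, the secreted dismutase, CAT, the peroxisomal catalase, GPX7, an oxidoreductase of the endoplasmic reticulum, and GPX5, known as an epididymal peroxidase. The same held for PRDX3, the mitochondrial peroxiredoxin, TXN, the cytosolic thioredoxin, TXNRD2, the mitochondrial thioredoxin reductase, and TXNDC8, a thioredoxin known from spermatids. GLRX2, the mitochondrial glutaredoxin, HMOX2, the constitutive haem oxygenase, and NQO1, a quinone reductase and NRF2 target, also gave 0 arrays. The probes of GPX2, PRDX4 and GCLC were each above background on 1 array. For GPX2, the gastrointestinal peroxidase, it was dexamethasone replicate 2. For PRDX4, the peroxiredoxin of the endoplasmic reticulum, and for GCLC, the catalytic subunit of glutamate-cysteine ligase, it was dexamethasone replicate 3, where GCLC had a signal strength of 1.37 against 0.68 to 0.95 on the other arrays.

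Of the 16 member probes tested, 0 passed limma's adjusted p of 0.05, where 0.00407% of all 24590 tested probes did, and 0 passed the unadjusted p of 0.05, where 3.29% of all tested probes did. The smallest unadjusted p of a member was 0.144, and limma's adjusted p was 0.999 for each. The dexamethasone and control values overlapped for all 16, whereas the groups did not overlap for 9.27% of all tested probes. A difference of 1.5-fold or more was seen in 0 of the 16 and in 0.240% of all tested probes. Differences, as dexamethasone minus control on the normalised log2 scale, lay above 0 for 8 members and below 0 for 8, against 47.5% above 0 for all tested probes. With median scaling in place of quantile normalisation 4 members lay above 0 (25%) and 12 below, beside 23.0% above 0 for all tested genes. With the deposited scaled intensity 6 lay above 0 (37.5%) and 10 below, beside 33.9% for all tested genes. The median over the 16 genes was -0.00, beside -0.01 over all 10604 tested genes. With bulk tissue, fewer cells of a type and less RNA per cell cannot be told apart.

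Intervals give the size of change that the arrays leave possible. The 95% intervals of the 16 differences lay between -0.65 and 0.46, and both extremes belonged to GPX1. For the other 15 genes the whole interval was inside a 1.5-fold change in either direction. This holds for the main processing only. With median scaling, where the median of all tested genes was -0.09, GLRX was at -0.24 ± 0.17 (SE). With background subtraction TXN2 was at 0.27 ± 0.18 (SE). Intervals under such alternatives are not given here and can be wider. The intervals refer to the normalised intensity, in which an offset compresses differences of dim probes, so the transcripts may have changed by more.

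**Figure D2:**
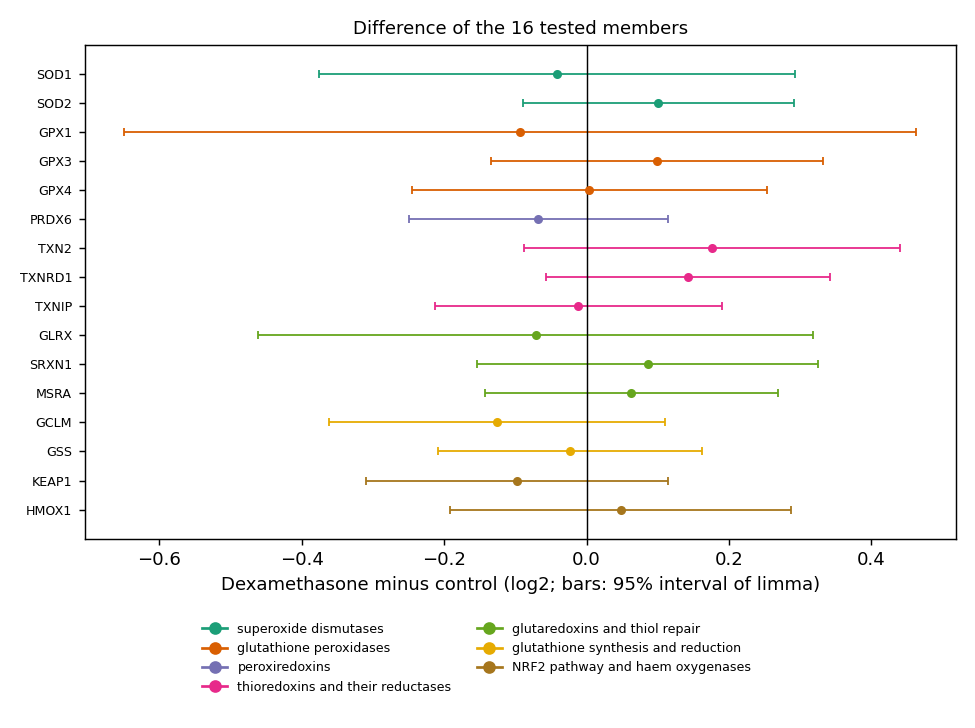
Difference between dexamethasone and control stallions (log2, limma) for the 16 tested members, coloured by enzyme class, with 95% intervals as bars and 3 stallions per group except 2 controls for GPX1. Every interval crosses 0, and that of GPX1, from -0.65 to 0.46, is the widest.

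For both dismutases that could be tested the groups overlapped. SOD1, the copper and zinc enzyme of the cytosol, was at 9.33, 9.70 and 10.00 in dexamethasone replicates 1 to 3 and at 9.82, 9.65 and 9.67 in the controls (normalised log2 intensity). The treated stallions thus held both the lowest and the highest value, with the controls between them. The difference was -0.04 ± 0.15 (SE, n = 3 each, limma). SOD2, the manganese enzyme of mitochondria, was at 7.30, 7.42 and 7.31 with dexamethasone and at 7.17, 7.25 and 7.31 in the controls. Its highest value was a treated stallion's, the groups overlapped, and the difference was 0.10 ± 0.08 (SE).

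Glutathione peroxidases gave 3 usable probes. GPX1, the cytosolic enzyme, was at 10.02, 10.27 and 11.03 in the dexamethasone stallions and at 10.55 and 10.52 in controls 1 and 3. The spot of control replicate 2 carried the flag C and was left out, and it would stand at 10.86 if such spots were kept. The treated stallions again lay on both sides of the controls. The difference was -0.09 ± 0.24 (SE, 2 controls), and -0.20 with the flagged spot kept. GPX4, the phospholipid hydroperoxidase, was at 10.12, 10.07 and 10.45 against 10.20, 10.29 and 10.14, a difference of 0.00 ± 0.11 (SE). GPX3, the secreted plasma form, was at 6.61, 6.69 and 6.87 against 6.57, 6.78 and 6.52, a difference of 0.10 ± 0.10 (SE). Its probe was close to background, with signal strengths of 1.08 to 1.29, and plain background subtraction gave 0.21.

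Dexamethasone replicate 3 was the highest of the 6 stallions for 5 of the 16 genes, SOD1, GPX1, GPX4, GPX3 and SRXN1. For GPX1 it was still so when the flagged control was kept. Other stallions had similar counts, with dexamethasone replicate 1 the highest for 4 genes. That stallion and control replicate 1 were each the lowest for 5. Shares over all tested genes were not taken for these counts. Dexamethasone replicate 1 was the lowest for SOD1 and GPX1, and dexamethasone replicate 2 for GPX4. The arrays came in 2 runs of slide numbers, replicates 1 and 2 of both groups in the first and replicate 3 of both in the second. Within the first run the differences were -0.22 for SOD1, -0.40 for GPX1 (1 control value) and -0.15 for GPX4. Within the second run, 1 stallion against 1, they were 0.32, 0.50 and 0.31, of the opposite sign. GPX3 was at -0.03 in the first run and 0.35 in the second, while SRXN1 was at 0.09 in both. Without dexamethasone replicate 3 the differences were -0.20 for SOD1, -0.39 for GPX1 and -0.12 for GPX4. GPX1 then had an unadjusted limma p of 0.0145 and an adjusted p of 0.987. These genes were set side by side after their values were seen, and run and stallion cannot be told apart here.

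Of the peroxiredoxins only PRDX6, the enzyme that also reduces phospholipid hydroperoxides, had a tested probe. It was at 8.24, 8.21 and 8.31 with dexamethasone and at 8.33, 8.26 and 8.36 in the controls. All 6 stallions lay close together, and the difference was -0.07 ± 0.08 (SE), with a 95% interval of -0.25 to 0.11. PRDX3 and PRDX4 were below the minimum, and the 3 others had no probe of their own, so that the main peroxide-reducing peroxiredoxins of cytosol and mitochondria gave no value here.

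The thioredoxin system held the members with the smallest p-values. TXNRD1, the cytosolic selenoenzyme that reduces thioredoxin, was at 9.99, 10.17 and 10.07 in the dexamethasone stallions and at 10.03, 9.91 and 9.87 in the controls. Control replicate 1 lay above the lowest treated stallion, and the difference was 0.14 ± 0.09 (SE, limma unadjusted p = 0.144). It was -0.02 with median scaling, where the median of all tested genes was -0.09. TXN2, the mitochondrial thioredoxin, was at 7.56, 7.45 and 7.44 against 7.09, 7.28 and 7.55. Treated stallions lay close together, and the controls spread over a wider range that reached into theirs. Its difference of 0.18 ± 0.12 (SE) was the largest of the 16 in size, and it was 0.07 without control replicate 1 and 0.30 without control replicate 3, where the unadjusted limma p was 0.0191 and the adjusted p 0.992. TXNIP, which binds and inhibits thioredoxin and is known in other cell types to respond to glucocorticoids, was at 8.06, 7.96 and 7.81 against 7.99, 7.92 and 7.95, a difference of -0.01 ± 0.09 (SE). Its interval ran from -0.21 to 0.19.

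**Figure D3:**
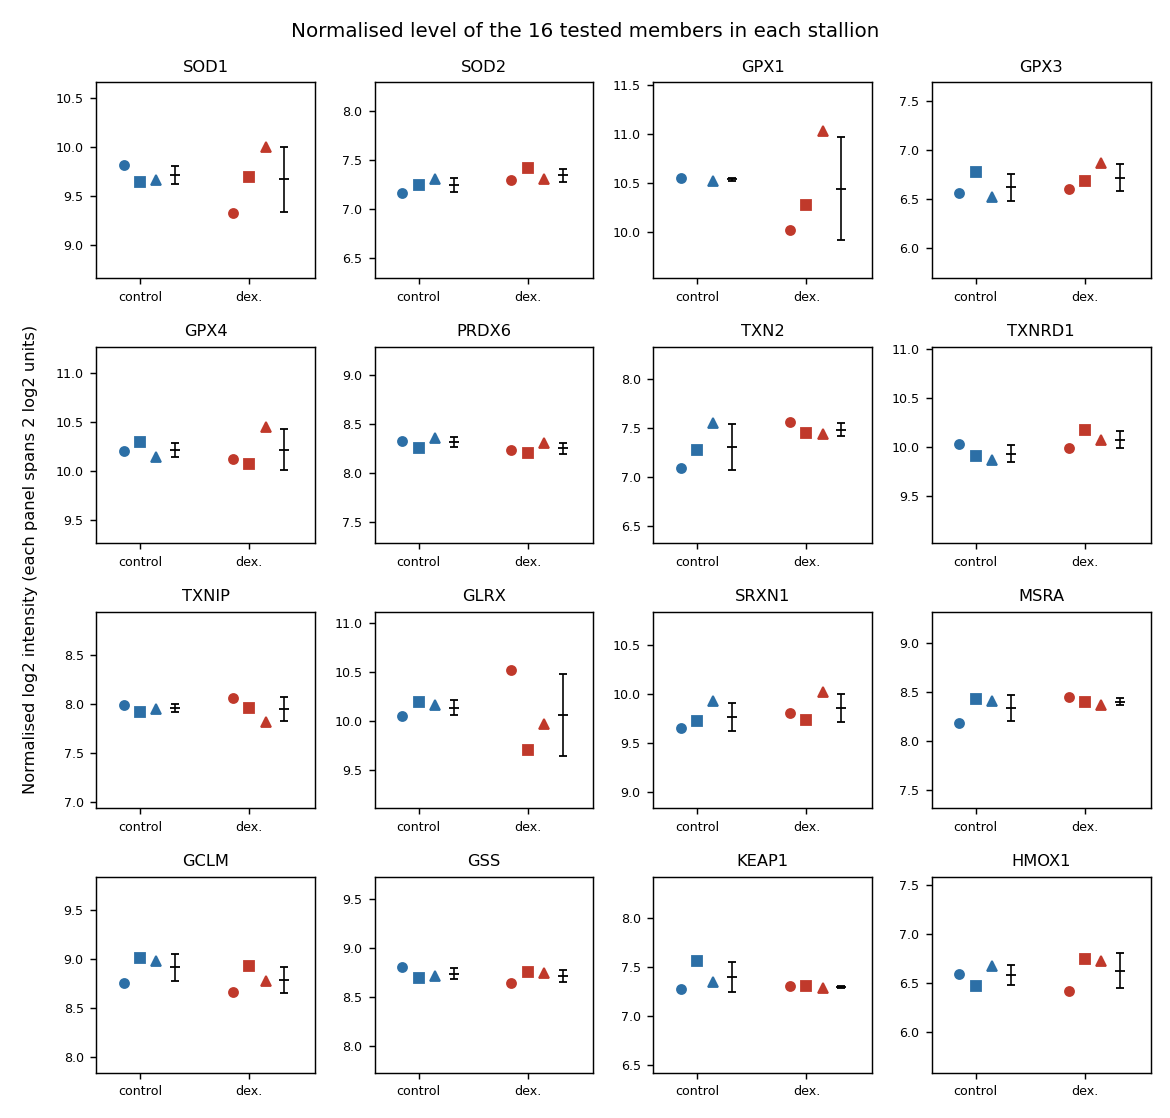
Normalised log2 intensity of the 16 tested members in each stallion, with controls in blue, dexamethasone stallions in red and circles, squares and triangles for replicates 1 to 3. Black bars give the group mean and SD (n = 3, or 2 for GPX1 controls), and each panel spans the same range. The groups overlap in every panel, and the dexamethasone stallions spread most for GPX1, GLRX and SOD1.

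Among glutaredoxins and thiol repair enzymes, GLRX, the cytosolic glutaredoxin that removes glutathione from proteins, varied most. It was at 10.52, 9.71 and 9.97 in the dexamethasone stallions and at 10.05, 10.20 and 10.17 in the controls. Dexamethasone replicate 1 was the highest stallion and dexamethasone replicate 2 the lowest. The difference was -0.07 ± 0.17 (SE). It was 0.11 without dexamethasone replicate 2 and -0.30 without dexamethasone replicate 1, where the unadjusted limma p was 0.0228 and the adjusted p was 1. SRXN1, the sulfiredoxin that repairs overoxidised peroxiredoxins, was at 9.81, 9.74 and 10.02 against 9.66, 9.73 and 9.93, a difference of 0.09 ± 0.11 (SE). MSRA, which reduces methionine sulfoxide, was at 8.45, 8.40 and 8.37 against 8.19, 8.43 and 8.41, a difference of 0.06 ± 0.09 (SE). With median scaling these were -0.07 for SRXN1 and -0.05 for MSRA, where the median of all tested genes was -0.09.

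Glutathione synthesis was read through one subunit of its first enzyme and through its second enzyme. GCLM, the modifier subunit of glutamate-cysteine ligase, was at 8.66, 8.93 and 8.77 with dexamethasone and at 8.75, 9.01 and 8.98 in the controls. A treated stallion was the lowest and a control the highest, but the groups overlapped, and the difference was -0.13 ± 0.11 (SE). With median scaling it was -0.25, with an unadjusted limma p of 0.0269 and an adjusted p of 0.659. GSS, the glutathione synthetase, was at 8.65, 8.76 and 8.75 against 8.81, 8.70 and 8.72, a difference of -0.02 ± 0.08 (SE). The 95% intervals were -0.36 to 0.11 for GCLM and -0.21 to 0.16 for GSS.

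Of the NRF2 arm, KEAP1 and HMOX1 were tested. KEAP1 was at 7.30, 7.30 and 7.28 in the dexamethasone stallions and at 7.27, 7.56 and 7.34 in the controls. Treated stallions were nearly equal, and control replicate 2 stood above the rest. The difference was -0.10 ± 0.09 (SE), and -0.01 without control replicate 2. HMOX1, the stress-inducible haem oxygenase, was at 6.42, 6.74 and 6.72 against 6.59, 6.47 and 6.67, a difference of 0.05 ± 0.11 (SE). Its signal strengths of 1.03 to 1.26 were close to background.

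Spread within the groups was of the usual size for these arrays. The residual SD of the 16 genes had a median of 0.14 on the log2 scale, beside 0.12 for all tested genes. The SD of the dexamethasone stallions was the larger one in 9 of the 16 genes (56.2%), and in 56.4% of all tested genes. It was over 2-fold that of the controls for 5 members, SOD1, GPX1, GPX4, TXNIP and GLRX, which is 31.2% beside 26.0% of all tested genes. For GPX1 this rests on 2 controls. The SD of the controls was over 2-fold that of the treated stallions for TXN2, MSRA and KEAP1. By enzyme class the median differences were 0.03 for the dismutases, 0.00 for the glutathione peroxidases and 0.14 for thioredoxins and their reductases. They were 0.06 for glutaredoxins and thiol repair, -0.07 for glutathione synthesis and -0.02 for the NRF2 pathway and haem oxygenases, over 2 or 3 genes in each class.

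Genes around the members were taken from 6 lists of 67 genes, of which 60 had a probe of their own and 32 were tested, each by its probe with the highest mean. Of these 32 genes, 0 passed limma's adjusted or unadjusted p of 0.05, beside 0% and 3.87% of all tested genes. Above 0 lay 9 and below it 23, with a median of -0.06. The share above 0 was 28.1%, beside 47.3% of all tested genes, and no test of that difference was made. The count above 0 was between 9 and 12 without each stallion in turn and 4 with median scaling, where 23.0% of all tested genes lay above 0. With no filter on signal, which adds genes near background, 25 of 59 lay above 0 (42.4%), beside 48.9% of all genes, with a median of -0.02. OPLAH, among those below 0, was above background in 1 of 3 treated and 3 of 3 control stallions. It thus reached the minimum for a test only through the controls. Where signal was required on all 6 arrays, 9 of 29 lay above 0 (31%), beside 48.5% of all tested genes.

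The list of NRF2 partners and regulators had a median of -0.11 over 5 tested genes, of which 1 lay above 0. It was MAFF, a small MAF protein that pairs with NRF2 on DNA, which is singled out here after its values were seen. It was at 8.71, 8.74 and 8.63 with dexamethasone and at 8.49, 8.48 and 8.57 in the controls. All treated stallions were above all controls, and the groups did not overlap, in either direction, for 9.33% of all tested genes. The difference for MAFF was 0.18 ± 0.08 (SE, limma unadjusted p = 0.0504, adjusted p = 0.999), with the smallest p of the 32 genes. Within the runs of slides it was 0.25 and 0.06. MAFG, another small MAF protein, was at -0.06 ± 0.11 and NFE2L1, a relative of NRF2, at -0.15 ± 0.09 (SE). SQSTM1, which can bind KEAP1, was at -0.15 ± 0.11 by its brighter probe and at 0.05 ± 0.11 by its second tested probe (SE).

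The other lists had medians between -0.09 and -0.01. Oxidant sources had a median of -0.04 over 8 tested genes, among them CYBB, the phagocyte oxidase subunit, at -0.06 ± 0.08 and XDH, the xanthine dehydrogenase, at 0.04 ± 0.10 (SE). Selenoprotein synthesis and supply, on which GPX1, GPX4 and TXNRD1 depend, had a median of -0.01 over 5. Its gene SELENOP, the plasma selenium carrier, varied widely among stallions of one group, with SDs of 0.54 in treated and 0.40 in control animals. SEPHS1, a relative of the selenophosphate-making enzyme SEPHS2, was at 0.00 ± 0.20 (SE) by the probe that represents it. Its second tested probe was at 6.05, 6.31 and 6.38 with dexamethasone and at 6.47, 6.67 and 6.48 in the controls. By that probe all treated stallions were below all controls, and the difference was -0.30 ± 0.11 (SE), with an unadjusted limma p of 0.0209 and an adjusted p of 0.999. It was above background in 1 of 3 treated and 3 of 3 control stallions, and within the runs of slides the difference was -0.39 and -0.11. The second SEPHS1 probe thus reached the minimum of 3 arrays only through the controls, where it was higher. Its signal strengths of 0.81 to 1.18 were near background, so its difference and p cannot count as support for a change. Glutathione turnover and cystine uptake had a median of -0.08 over 5 and the other thioredoxin-fold and repair genes -0.06 over 8. TXNDC2, a thioredoxin of the sperm tail, was at -0.06 ± 0.13 in the latter. NADPH supply was read by NNT alone, the mitochondrial transhydrogenase, at -0.09 ± 0.09 (SE).

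**Figure D4:**
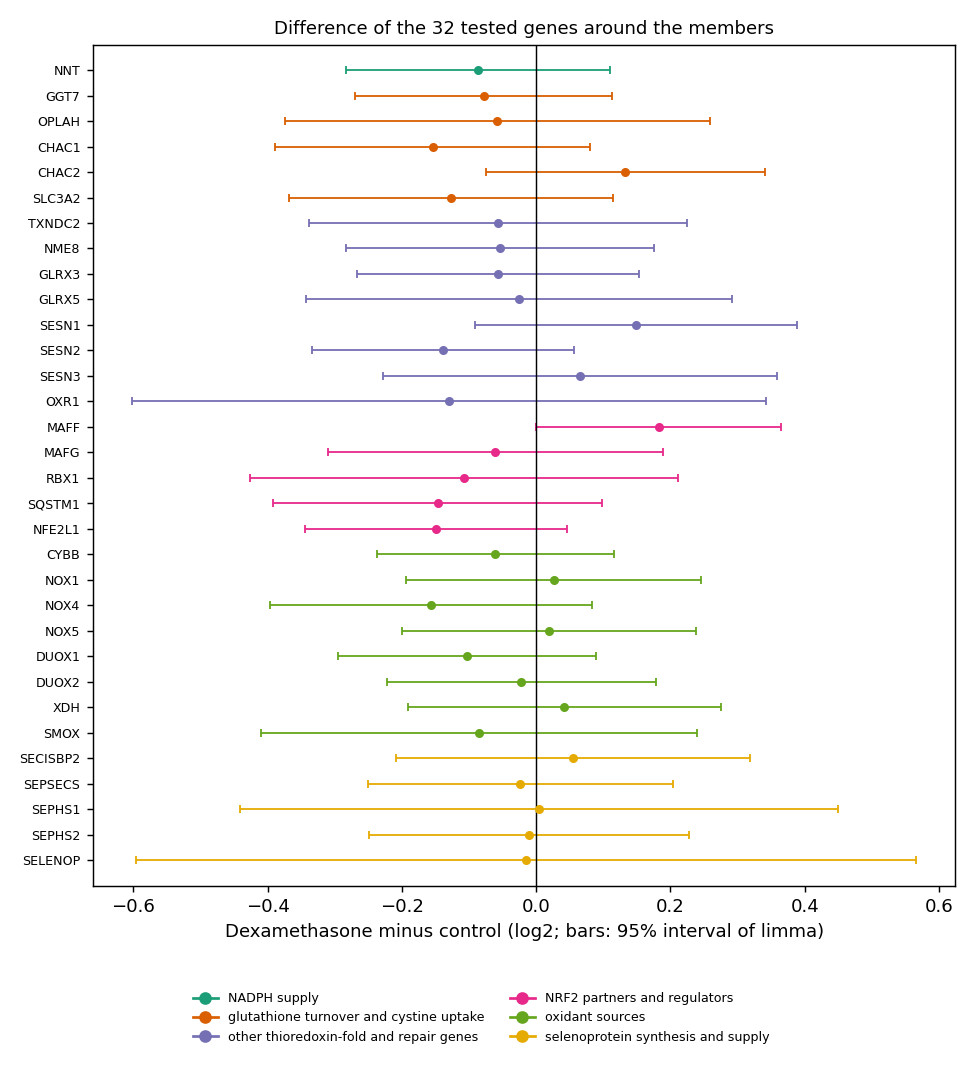
Difference between dexamethasone and control stallions (log2, limma) for the 32 tested genes of the 6 surrounding lists, coloured by list, with 95% intervals as bars and up to 3 stallions per group. Every interval includes 0, with that of MAFF starting at -0.00, and 23 of the 32 points lie below 0.

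Over the whole arrays, 22690 to 25537 gene probes were above background per stallion (42.5% to 47.8%), and the arrays correlated at 0.982 to 0.989 over 15 pairs across probes, which are not independent replicates. Markers of the tissue were detected in part. Tested were 6 of 6 Leydig markers, 7 of 8 Sertoli, 6 of 7 spermatogonial, 5 of 9 spermatocyte and 7 of 10 spermatid markers, but PRM2 and TNP1, abundant spermatid transcripts in other mammals, were above background on 0 arrays. The summed linear intensity of the 3 Leydig markers with complete values was 5360 to 5800 in dexamethasone stallions and 6080 to 7070 in controls, without overlap. INSL3, at -1.21 ± 0.23 by its brighter probe (SE, limma unadjusted p = 0.000389, adjusted p = 0.999), carried most of this gap. Its second tested probe was at -0.52 ± 0.22 (SE), with overlapping groups. LHCGR was at -0.08 ± 0.09 and STAR at 0.01 ± 0.11 (SE). Over all 6 tested Leydig markers 3 lay above 0 and 3 below, with a median of -0.04. For the 3 tested of 6 peritubular myoid markers the sum was 500 to 517 against 568 to 580, with MYH11 and CNN1 above background on 0 arrays. MYLK, the brightest of the 3, was at -0.22 ± 0.08, CALD1 at -0.20 ± 0.10 and ACTA2 at -0.02 ± 0.10 (SE). The groups overlapped for CALD1 and ACTA2. The CALD1 probe was above background in 1 of 3 treated and 3 of 3 control stallions, at signal strengths of 0.86 to 1.22. It reached the minimum of 3 arrays only through the controls, where it was higher. Its difference and its part in the sum therefore cannot count as support for a change. Of 8 epididymal duct markers, the tissue of GPX5, 5 were tested, with CRISP1 above background on 0 arrays, and their sum over 4 was 1810 to 1910 in each group. Sums of spermatid markers, 8010 to 9550 against 7510 to 9000, overlapped, as did those of spermatocyte, spermatogonial, Sertoli, macrophage and endothelial markers. The Sertoli sum leaves out CLDN11, which had 2 control values. By its brighter probe CLDN11 was at 0.48 ± 0.13 without overlap (SE, limma unadjusted p = 0.00423, adjusted p = 0.999). Its second tested probe was at 0.04 ± 0.12 (SE), with overlap. Of the 7 tested Sertoli markers 3 lay above 0 and 4 below. Red cells, which are rich in GPX1 and catalase, were read by ALAS2 and AHSP, of 7 markers. The level of ALAS2 was 114 to 152 against 113 to 128, a difference of 0.13 ± 0.12 (SE). AHSP, the brighter of them, went the other way at -0.17 ± 0.16 (SE, 2 control values). The red cell markers thus gave no common direction. The part of these markers in the members' values was not tested. The number of arrays limits the precision, and an exact two-sided permutation test of 3 stallions against 3 cannot give a p below 0.1.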

How the data were processed

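Per the labels' protocols, total RNA of minced parenchyma was made into cRNA with the CodeLink manual protocol and read as Alexa-647, 1 array per stallion. Per the file headers the deposited files give each spot's mean intensity, local background, a scaled intensity, a quality flag and a signal strength score. Which scanner software made them, and what its flags mean, is not given in the sources used here. A deposited table for all samples repeats the scaled intensity. Spots without a value (353 to 610 per array) or flagged C, I or P (320 to 1189) were treated as missing, and 1567 control spots were left out. limma 3.58.1 in R 4.3.3 was used for background correction (normexp, offset 50, on the mean of the spot and the median of its background), for quantile normalisation and for the log2 fit. Figures were drawn with matplotlib 3.10.9.

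Testing required signal above background (no flag L) on at least 3 of the 6 arrays with at least 2 values per group. Groups were compared with lmFit and eBayes, two-sided, p-values were adjusted by Benjamini-Hochberg across the 24590 probes that qualified, and the procedure was tested on simulated data. A gene with several tested probes would be represented by the one with the highest mean, but each tested member had 1. Replicates are stallions, numbered in the order of the samples, and nothing pairs them. Median local background was 47 to 50 under a median spot mean of 72.6 to 79.4. The members and lists were chosen with earlier results of these data known. Values per stallion were planned for the 2 members of each class with the smallest p, and GPX4, TXNIP and GLRX were added. Pathway genes were to be named at an unadjusted p under 0.05, which no representing probe reached and 1 second probe, of SEPHS1, did, so the others named are examples. Alternatives are given in the closing section.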

Additional observations from a re-analysis of the deposited data

How the results depend on the processing

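Members past limma's adjusted p numbered 0 under every alternative run (other background corrections, normalisations and filters, flagged spots kept, trend and robust eBayes, array weights, the run of slides as a block, each stallion left out). At an unadjusted p of 0.05 the count was 0 in the main fit and under the alternatives not named next. With median scaling it was 1 of 16 (GCLM), where 7.31% of all tested probes passed. With no filter on signal it was 1 of 41, where 3.92% of all probes passed. That 1 was the TXNRD1 probe below background on all 6 arrays. Without each stallion in turn the count was 0 to 1, where 2.64% to 4.7% of all tested probes passed. The probes were GPX1 without dexamethasone replicate 3, GLRX without dexamethasone replicate 1 and TXN2 without control replicate 3. The median difference of -0.00 became -0.13 with median scaling, where the median of all tested genes was -0.09, -0.086 with the deposited scaled intensity, where it was -0.07, and 0.045 with no filter on signal, which adds 16 genes near background. It ranged from -0.021 to 0.081 without each stallion in turn, the latter without dexamethasone replicate 1, and was -0.02 and 0.02 within the runs. Of 319 values of single genes under alternatives, 16 moved by more than the SD between stallions, 29 changed sign and 0 passed the adjusted p. Other causes were not tested. No paired analysis was possible because the labels give no replicate numbers that tie treated to control stallions. Low signal limits the other 16 genes with a probe.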
